A study of Rattus norvegicus with 19 samples.

Results

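Oligodendrocyte lineage and myelin genes were examined in hippocampal RNA of male Sprague Dawley rats that carry a deletion or a duplication of the chromosome 1 segment equivalent to human 16p11.2. The set held 35 genes chosen by symbol for their known place in this lineage, with no measured value in the rule: 2 of precursor cells, 4 of newly formed oligodendrocytes, 5 lineage transcription factors and 24 of myelin and mature oligodendrocytes. All 35 symbols were found, on 36 of the 32623 gene rows, and 35 rows were among the 15440 genes with enough reads to be tested. The row left out was a second entry for *Tmem125*, with 0 to 5 reads per library.

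The 19 libraries, 1 per animal, came from 6 wild-type rats (wt, 2 copies of the segment), 4 *Del/+* rats (1 copy), 5 *Dup/+* rats (3 copies) and 4 *Del/Dup* rats with a deleted and a duplicated chromosome (2 copies). Every animal was male and of the outbred Sprague Dawley background. The deletion and the duplication were made with CRISPR/Cas9 in rat embryos, and carriers were compared with littermates. The age of these animals is not given in the labels. Whole hippocampus was used, so the lineage was measured within a mixture of cell types.

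Oligodendrocytes arise from proliferating precursors, which carry the growth factor receptor Pdgfra and the proteoglycan Cspg4 (NG2). Under transcription factors such as Olig2, Sox10 and Myrf the precursors stop dividing, pass through a short premyelinating state marked by genes such as *Enpp6* and *Bcas1*, and then wrap axons in myelin, a stack of membrane built from lipids such as galactosylceramide and from proteins such as Mbp. In the hippocampus myelinated fibres run along the alveus and fimbria, among other places.

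All 35 members had reads in every library. *Mbp*, the myelin basic protein gene, stood at 2224 to 3731 counts-per-million (CPM, reads of a gene relative to the total of its library, after scaling between libraries), and the precursor gene *Pdgfra* at 105 to 135 CPM. Depth was 16191192 to 38760645 reads on genes per library, so that even the lowest tested members, *Enpp6* (3.35 to 7.93 CPM) and *Ninj2* (3.89 to 8.52 CPM), rested on at least 64 and 98 reads in every library. Multi-mapped reads, those that align at several places in the genome, made up 40.1% to 50.5% of counted reads in all wt and *Dup/+* libraries and in *Del/+* replicate 4, and 57.8% to 76.3% in the other *Del/+* and all *Del/Dup* libraries. For wt replicate 5 the label fields disagree, one giving wt and another Dup/+. It was counted as wt.

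The first comparison was that of *Del/+* with wt, which asks how loss of 1 copy of the segment was reflected in the lineage. The median log2 fold change was 0.31 over the 24 genes of myelin and mature cells, 0.29 over the 4 of newly formed cells, 0.13 over the 5 transcription factors and -0.10 over the 2 precursor genes. Differences between these stages were not tested. A related value, the stage median of log2 CPM against wt averaged over *Del/+* libraries, moved with a library left out. In the same order it spanned 0.18 to 0.37, 0.16 to 0.37, 0.09 to 0.22 and -0.15 to -0.06. Of the 35 members, 33 had a log2 fold change above 0 (50.2% of all genes tested did), with a median of 0.28 against 0.00 over all genes. By the edgeR quasi-likelihood test with Benjamini-Hochberg adjustment over all 15440 genes, 2 members passed an adjusted p of 0.05, where 0.771% of all genes did. The count moved with the fit: DESeq2 called 15 members and 4.24% of all genes, and edgeR without *Del/+* replicate 1 called 12 members and 1.68% of all genes. Both members called in edgeR were higher: the tetraspanin gene *Cd9* and *Opalin*, which encodes a glycoprotein of the oligodendrocyte membrane. At an unadjusted p under 0.05 stood 21 members that were higher, against 8.77% of all genes, and 1 that was lower, against 9.68%. In RNA of a whole tissue, fewer or more cells of a type and less or more RNA per cell cannot be told apart.

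*Cd9* encodes a tetraspanin found in myelin and also made by other cells. It stood at 55.6, 54.5, 56.5 and 63.5 CPM in the 4 *Del/+* libraries and at 39.8 to 46.7 CPM in wt (median 43.9, n = 6). Every *Del/+* library lay above every wt library, a pattern shown by 2.23% of all genes, and by no other member. The log2 fold change was 0.40 ± 0.05 (SE), a fold of 1.32, with an adjusted p of 0.000143 in edgeR. *Cd9* was also the member with the smallest spread between replicates, with a biological coefficient of variation of 0.0568.

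*Opalin* stood at 99.3, 142, 114 and 174 CPM in *Del/+* and at 75.0 to 105 CPM in wt (median 86.8). *Del/+* replicate 1 lay inside the wt range and the other 3 lay above it. The log2 fold change was 0.56 ± 0.12 (SE), the highest of the 35, with an adjusted p of 0.0241. This call rested on single libraries. It was lost without *Del/+* replicate 4 (log2 0.40, adjusted p = 0.112), without *Del/+* replicate 2 (0.53, adjusted p = 0.123), and without wt replicate 1, 3 or 5 (0.52 to 0.55, adjusted p = 0.0553 to 0.0662).

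The next 3 members by adjusted p did not pass the test. *Ermn*, the gene of ermin, an actin-binding protein of late oligodendrocytes, stood at 94.5, 130, 99.6 and 135 CPM in *Del/+* and at 77.5 to 94.6 in wt, a log2 difference of 0.40 ± 0.10 (SE, adjusted p = 0.0650). *Tspan2*, a tetraspanin gene switched on as oligodendrocytes form myelin, stood at 128, 183, 131 and 235 CPM against 103 to 149 in wt, a log2 difference of 0.52 ± 0.14 (SE, adjusted p = 0.0734). *Car2*, a carbonic anhydrase gene, stood at 165, 197, 175 and 222 CPM against 146 to 172, with a log2 difference of 0.29 ± 0.08 (SE, adjusted p = 0.0797). In each of the 3, replicates 2 and 4 stood highest among *Del/+*, and replicate 1 lay inside the wt range.

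**Figure D1:**
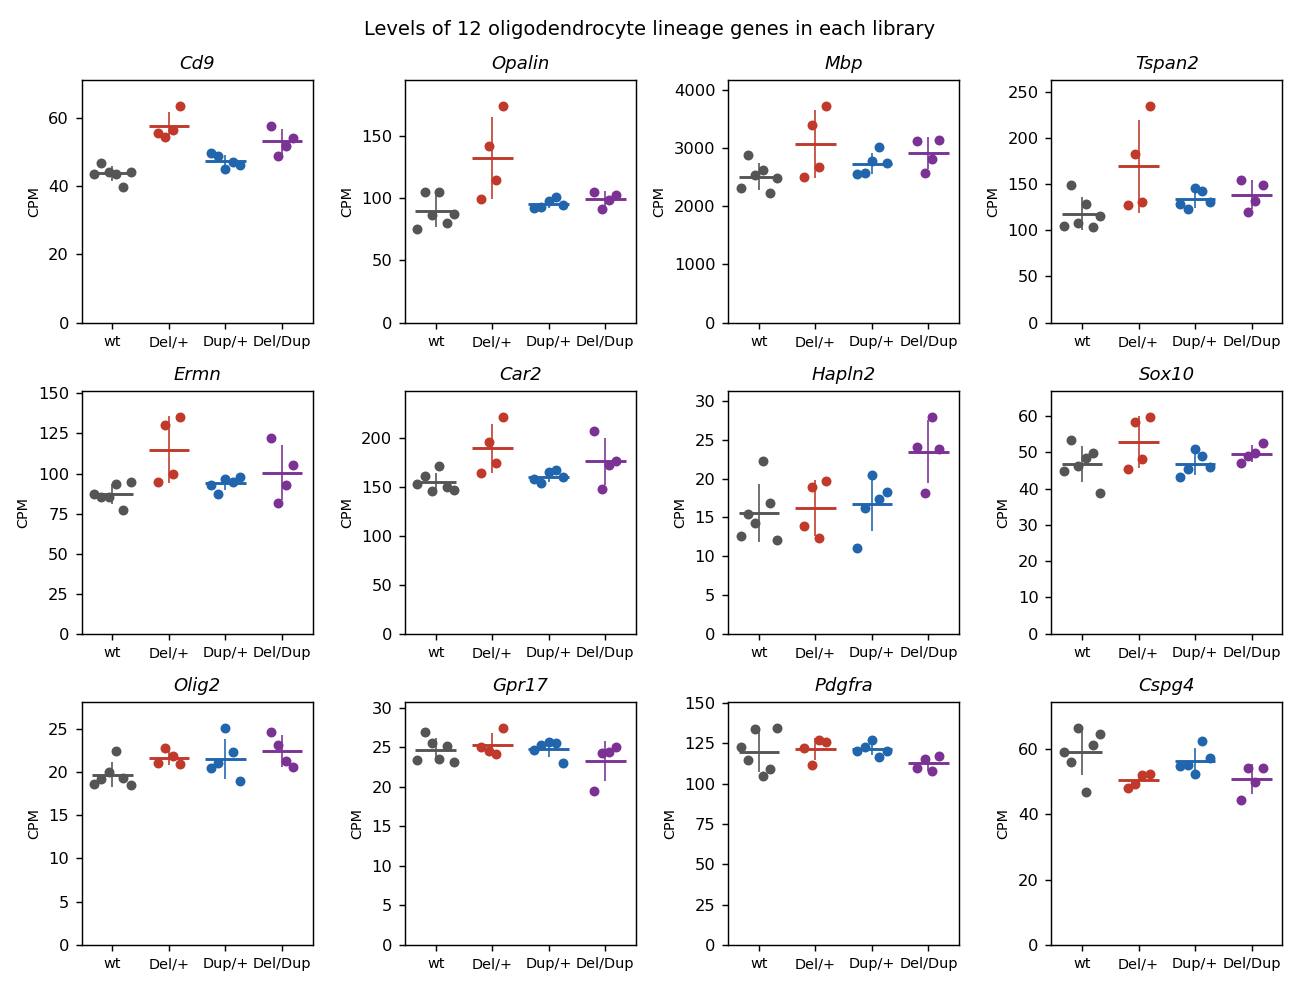
Levels of 12 members in CPM (vertical axes, starting at 0) by genotype (horizontal axes); each point is 1 library, horizontal bars are group means and vertical bars 1 SD (n = 6 wt, 4 *Del/+*, 5 *Dup/+*, 4 *Del/Dup*). *Cd9* points of *Del/+* (54.5 to 63.5 CPM) lie above all wt points (39.8 to 46.7 CPM), while *Opalin*, *Tspan2* and *Mbp* show 2 high *Del/+* points and 2 near wt.

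The sequences upstream of these members are shown because these had the smallest adjusted p in this comparison and because Sox10 and Myrf, whose motifs were searched, are members of the set. RefSeq promoters of the GRCr8 assembly, which differs from the Rno6 assembly of the counts, were matched by symbol for 27 of the 35 members (28 promoters, *Mbp* having 2). Of the 5 members above, *Cd9*, *Opalin* and *Tspan2* had one. Each line gives the 250 bases before the annotated start in the direction of the gene, with matches to either of 2 motifs in capitals: the SOX core, ACAAAG or ACAATG, and the Myrf motif, CTGGCAC or CTGGTAC, both searched on both strands. The motifs were chosen after the values were seen.
Opalin, GRCr8 chr1:249858191-249858440, minus strand: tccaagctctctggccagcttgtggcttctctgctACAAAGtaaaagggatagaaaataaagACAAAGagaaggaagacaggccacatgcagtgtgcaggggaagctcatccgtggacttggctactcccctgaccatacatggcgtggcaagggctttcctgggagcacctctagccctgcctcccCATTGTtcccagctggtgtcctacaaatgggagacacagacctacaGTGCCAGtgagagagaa
Cd9, GRCr8 chr4:159975359-159975608, minus strand: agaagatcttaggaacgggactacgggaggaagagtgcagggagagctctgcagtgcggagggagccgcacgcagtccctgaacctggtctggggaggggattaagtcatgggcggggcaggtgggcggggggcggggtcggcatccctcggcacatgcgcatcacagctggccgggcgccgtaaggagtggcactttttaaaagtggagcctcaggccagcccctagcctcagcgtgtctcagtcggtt
Tspan2, GRCr8 chr2:192866030-192866279, plus strand: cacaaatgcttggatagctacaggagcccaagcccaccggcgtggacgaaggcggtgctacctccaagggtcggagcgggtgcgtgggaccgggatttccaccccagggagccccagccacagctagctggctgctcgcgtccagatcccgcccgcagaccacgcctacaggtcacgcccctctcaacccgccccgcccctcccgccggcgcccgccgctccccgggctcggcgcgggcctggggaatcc
The *Opalin* promoter held 3 SOX matches and 1 Myrf match, the latter 17 to 11 bases before the start. Those of *Cd9* and *Tspan2* held neither. Over the 28 promoters of members, 9 (32.1%) held a SOX match, as did 25.3% of 33469 promoters in all. A Myrf match was in 7 (25%), those of *Cldn11*, *Cnp*, *Hapln2*, *Mag*, *Mal*, *Olig2* and *Opalin*, and in 5.48% of all promoters. No match of one motif overlapped a match of the other. A match is a description of letters, and binding was not measured here.

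Among the 12 myelin protein genes, all had a log2 fold change above 0 in *Del/+* against wt (median 0.35, from 0.06 for *Hapln2* to 0.56 for *Opalin*), and 10 had an unadjusted p under 0.05. *Mbp* itself stood at 2504, 3403, 2675 and 3731 CPM against 2224 to 2875 in wt (median 2514), a log2 difference of 0.29 ± 0.10 (SE, adjusted p = 0.115). The adhesion protein genes *Mog* and *Mag* of the outer and innermost myelin layers differed by 0.36 and 0.32, the tight junction gene *Cldn11* by 0.37, the gap junction gene *Gjb1* by 0.38, and the enzyme gene *Cnp* by 0.28, with adjusted p from 0.0838 to 0.107. The raft protein gene *Mal* differed by 0.33 and *Mobp*, a gene of compact myelin, by 0.21. The group ranges of all of these except *Cd9* overlapped with wt.

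The 4 genes of myelin lipids and metabolism had log2 differences of 0.21 to 0.29, with 3 at an unadjusted p under 0.05. They were *Car2*, *Fa2h* (0.27), which hydroxylates the fatty acids of myelin lipids, and *Ugt8* (0.28), which makes galactosylceramide. *Aspa*, which breaks down N-acetylaspartate, differed by 0.21 ± 0.10 (SE, adjusted p = 0.274).

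The 8 other genes of mature oligodendrocytes ranged from -0.10 to 0.48 (median 0.29), with 5 at an unadjusted p under 0.05, all higher. *Tmem125*, a membrane protein gene, led at 0.48 ± 0.14 (SE, adjusted p = 0.101), followed by *Gsn*, the actin-severing gelsolin gene, and *Lpar1*, a lysophosphatidic acid receptor gene, both at 0.34. *Ninj2* differed by 0.33, *Plekhh1* by 0.25, the orphan receptor gene *Gpr37* by 0.21 and the lipocalin gene *Apod* by 0.21. *Anln*, whose product anillin is a cytoskeletal protein of myelin and of dividing cells, differed by -0.10 ± 0.08 (SE, adjusted p = 0.568).

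The 5 transcription factor genes had log2 differences of 0.06 (*Olig1*) to 0.17 (*Sox10*), and only *Sox10* had an unadjusted p under 0.05. *Myrf*, needed for myelin gene expression, differed by 0.13, *Nkx6-2* by 0.12 and *Olig2* by 0.14. Of the 4 genes of newly formed cells, *Tspan2* differed by 0.52, as given above, the second highest of the 35 members. *Bcas1* differed by 0.32 (adjusted p = 0.0926) and *Enpp6* by 0.26 ± 0.18 (SE), whereas *Gpr17*, a receptor gene of cells about to differentiate, stood at 24.2 to 27.4 CPM against 23.1 to 26.9 in wt, a difference of 0.04. In precursors *Pdgfra* differed by 0.02, and *Cspg4* stood at 48.0, 49.4, 51.9 and 52.2 CPM against 46.7 to 66.4 in wt (median 60.1). The *Cspg4* difference was -0.23 ± 0.08 (SE, adjusted p = 0.133), and all 4 *Del/+* libraries lay inside the wt range.

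**Figure D2:**
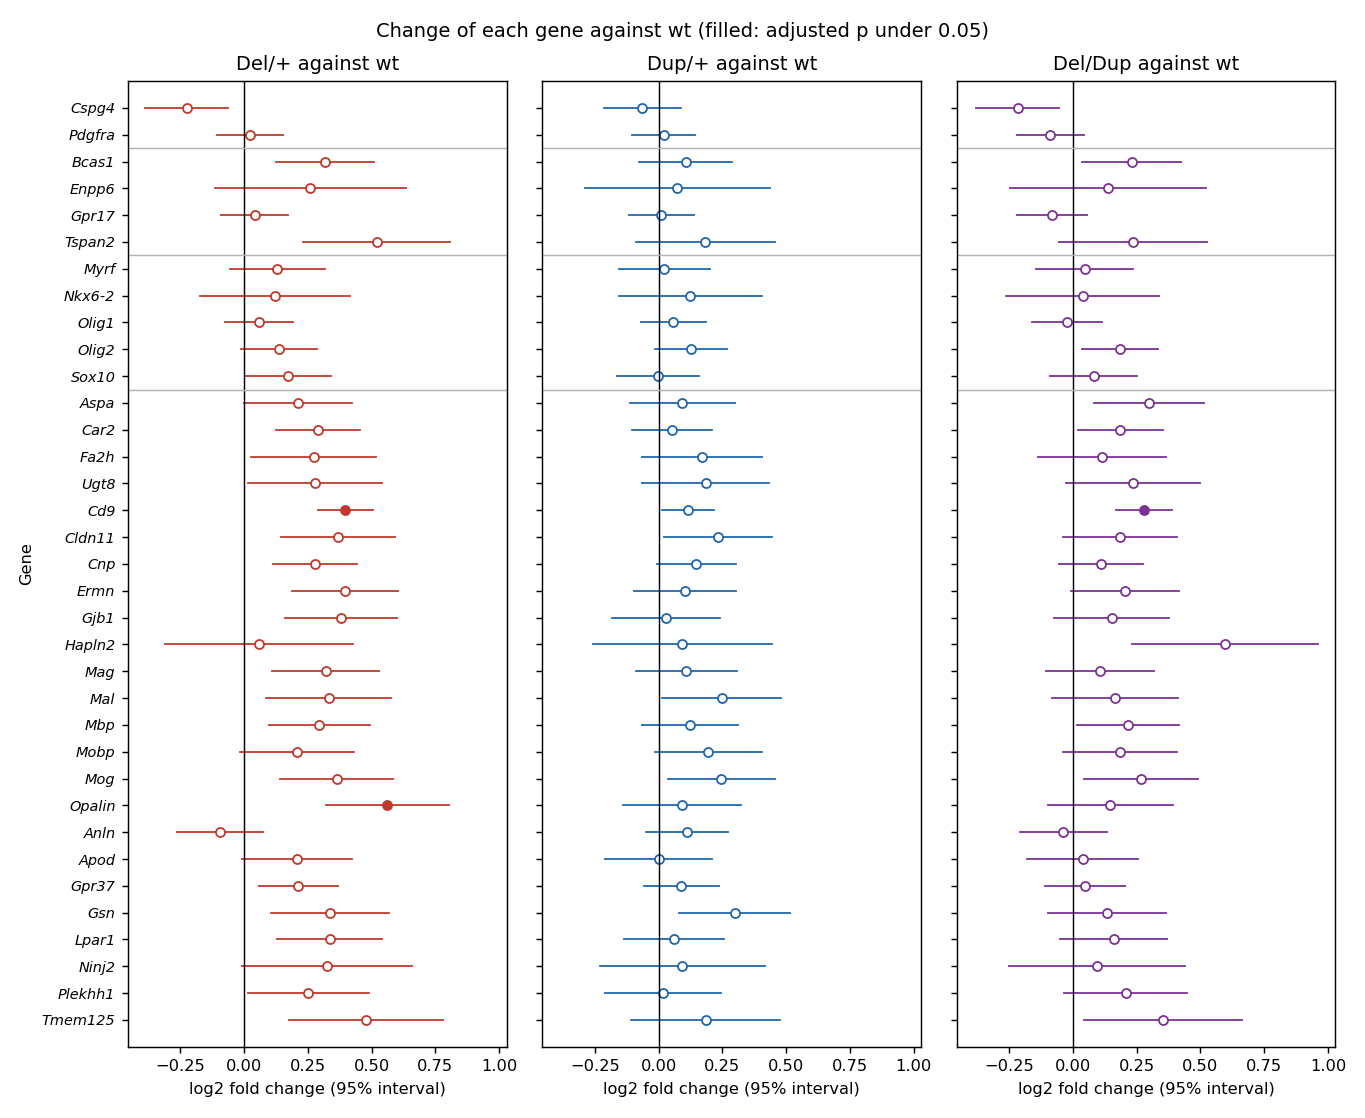
Log2 fold change against wt (horizontal axes) of the 35 members (vertical axis, ordered by stage from precursors at the top) for *Del/+*, *Dup/+* and *Del/Dup*; points are edgeR estimates, lines are 95% intervals and filled points passed an adjusted p of 0.05. In *Del/+* 33 of 35 points lie above 0, and only *Cd9* and *Opalin* in *Del/+* and *Cd9* in *Del/Dup* are filled.

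The *Del/+* libraries were not alike. *Del/+* replicate 4 was the highest of all 19 libraries in 28 of 35 members, and replicate 2 was among the 2 highest in 17. Replicates 2 and 4 both stood above replicates 1 and 3 in 28 of 35 members, and replicates 1 and 3 both lay inside the wt range in 26. Summarised as the median log2 difference from the wt mean over the 24 genes of myelin and mature cells, the 4 libraries stood at 0.06, 0.37, 0.11 and 0.63, with wt from -0.13 to 0.20. The same median over the 2 precursor genes was -0.13, -0.17, -0.04 and -0.05 in *Del/+*, with wt from -0.26 to 0.17, so that the 2 libraries with the highest myelin values were not high in precursor genes. *Cd9* did not show this split: all 4 libraries lay within 54.5 to 63.5 CPM, and replicate 2 was the lowest.

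**Figure D3:**
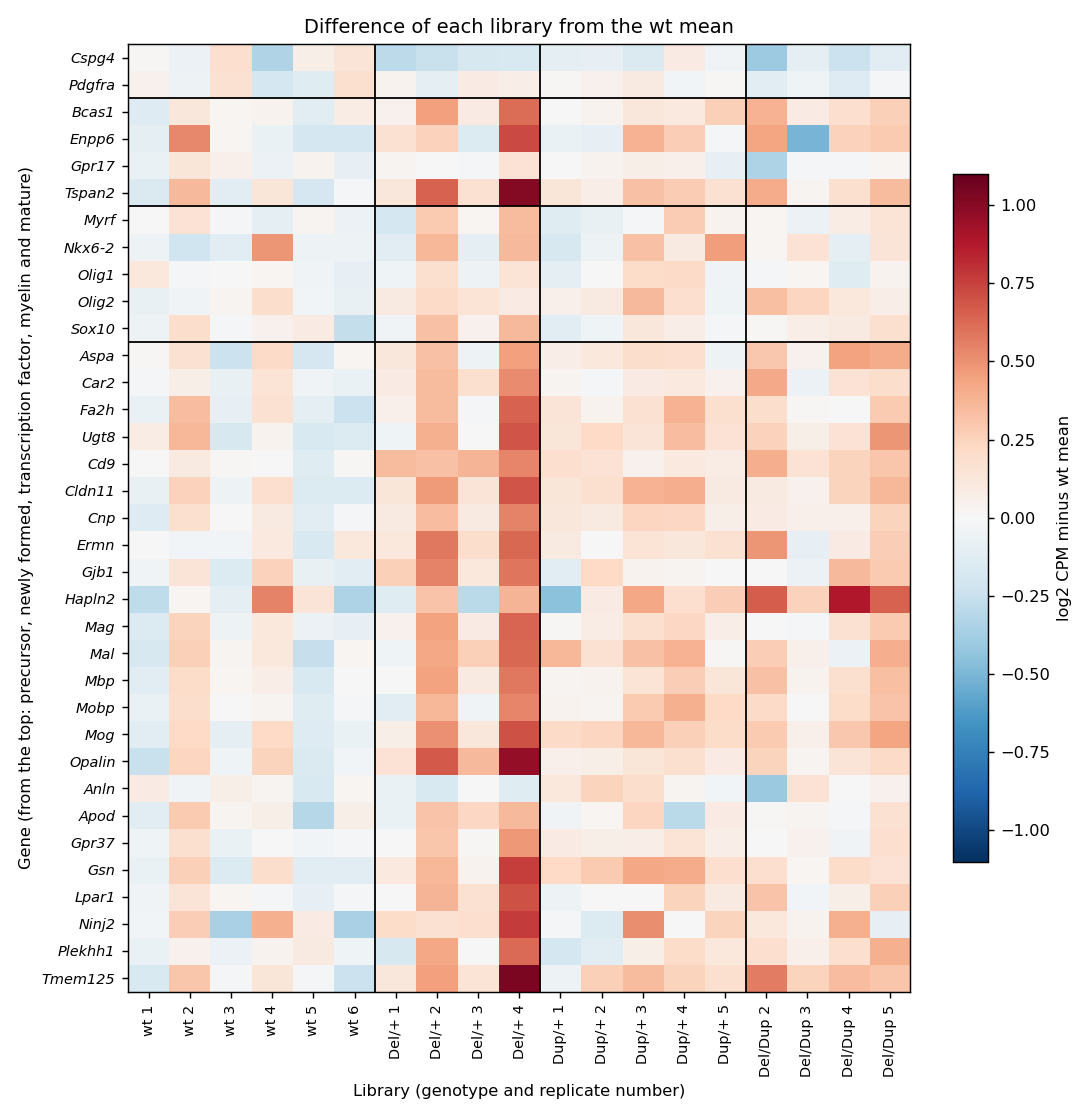
Log2 CPM of each of the 35 members (rows, by stage from the top: precursor, newly formed, transcription factor, myelin and mature) minus the wt mean, in each of the 19 libraries (columns, by genotype and replicate number), with red for higher and blue for lower. *Del/+* replicate 4 is the darkest red column, the highest library in 28 of 35 rows, while *Cspg4* is blue in all 4 *Del/+* columns.

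The share of multi-mapped reads was 73.1%, 76.3%, 63.9% and 41.6% in *Del/+* replicates 1 to 4, so that of the 2 libraries with the highest myelin values one had the highest share and the other the lowest. In a fit with a term for that share, in which the *Del/+* difference from wt rests on replicate 4 alone, the median over members was 0.57 and 13 passed the test, where 0.518% of all genes did. Without replicate 4 the median was 0.16 and 1 member, *Cd9*, passed, against 0.334% of all genes. Choroid plexus transcripts, which mark tissue of the ventricle next to the hippocampus, also varied: the summed level of 10 marker genes spanned 6.73 to 1330 CPM in *Del/+*, 44.5 to 1270 in *Del/Dup* and 8.17 to 428 in *Dup/+*, against 4.94 to 38.5 in wt, and the defining gene *Otx2* was at 0 in every library. All 9 tested markers were higher in *Del/+* at an unadjusted p under 0.05 and none passed the adjusted test in edgeR (2 did in DESeq2). *Ttr*, the leading one, stood at 5.12, 2.38, 1126 and 81.5 CPM in *Del/+* replicates 1 to 4, where the medians of the myelin and mature genes were 0.06, 0.37, 0.11 and 0.63. The part of these transcripts in the differences was not tested beyond the next fit. With *Ttr* as a covariate, chosen after seeing the data, the median over members was 0.30 and only *Cd9* passed, against 0.33% of all genes. *Opalin* then differed by 0.54 (adjusted p = 0.0721), against 0.56 without the covariate.

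Other genes of oligodendrocytes, which are not members, were counted beside them. One of these, *Neu4*, was listed at 0 in every library. Of 34 tested, 3 passed in *Del/+* against wt, all higher: *Tf*, the iron carrier transferrin (717 to 1035 CPM against 556 to 752, log2 0.41 ± 0.09 SE, adjusted p = 0.0421), the junction gene *Jam3* (31.9 to 37.9 against 25.2 to 30.2 CPM, log2 0.33 ± 0.07 SE, adjusted p = 0.0198) and *Trim59* (12.4 to 19.3 against 10.2 to 11.7 CPM, log2 0.48 ± 0.09 SE, adjusted p = 0.0187). Of all genes, 0.771% passed. For *Jam3* and *Trim59* every *Del/+* library lay above every wt library, as in 2.23% of all genes. The median over these 34 genes was 0.19, with 31 above 0 (50.2% of all genes were). Of 14 further precursor genes none passed in edgeR and 1, *Megf11*, passed in DESeq2. The median was 0.03. In edgeR 4 had an unadjusted p under 0.05, where 8.77% of all genes were higher at that p and 9.68% lower. *Megf11* encodes a receptor and had the smallest adjusted p in edgeR (20.8 to 34.6 against 34.9 to 40.5 CPM, log2 -0.39 ± 0.12 SE, adjusted p = 0.0982). Its *Del/+* libraries all lay below wt, a pattern whose share of all genes is not given here.

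Markers of other cell types in the dissection were counted too. In *Del/+* the median log2 fold change was -0.04 over 10 neuron markers, -0.11 over 10 astrocyte markers, -0.13 over 10 microglia markers and -0.05 over 9 vascular and fibroblast markers. No gene of these lists passed in edgeR, where 4, 2, 3 and 2 of them had an unadjusted p under 0.05. Of all genes, 8.77% were higher at that p and 9.68% lower. In DESeq2, 2 neuron markers (*Camk2a* and *Slc17a7*) were lower and the fibroblast gene *Dcn* was higher. *Cldn5* and *Col1a2* were listed at 0 in every library.

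In *Dup/+* against wt no member passed the test in edgeR or in DESeq2, where 0.272% of all genes did in edgeR. At an unadjusted p under 0.05 stood 5 members, all higher, against 4.46% of all genes higher. Of the 35, 33 had a log2 fold change above 0 (49.2% of all genes did), with a median of 0.10. The largest was that of *Gsn*, at 141, 147, 162, 160 and 137 CPM in *Dup/+* against 109 to 145 in wt (median 113). Its difference was 0.30 ± 0.10 (SE, adjusted p = 0.396). The 4 others were myelin protein genes. *Mog* stood at 82.6, 84.2, 91.9, 85.4 and 82.3 CPM against 64.6 to 83.1 in wt, a difference of 0.25 ± 0.10 (SE, adjusted p = 0.488). *Cldn11* stood at 145, 150, 173, 175 and 142 CPM against 119 to 158, a difference of 0.23 ± 0.10 (SE, adjusted p = 0.515). *Mal* stood at 215, 187, 209, 217 and 169 CPM against 140 to 200. Its difference was 0.25 ± 0.11 (SE, adjusted p = 0.528). *Cd9* stood at 49.6, 48.7, 45.1, 47.1 and 46.2 CPM, 3 of the 5 libraries above the wt maximum of 46.7, a difference of 0.12 ± 0.05 (SE, adjusted p = 0.503). All 5 genes overlapped with wt. With wt replicate 5, whose label fields disagree, counted as *Dup/+*, the differences were 0.21 for *Gsn*, 0.16 for *Mog*, 0.14 for *Cldn11*, 0.13 for *Mal* and 0.05 for *Cd9*, and the median over the 35 members was 0.05.

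*Opalin* stood at 92.3, 93.0, 97.4, 101 and 94.6 CPM in *Dup/+*, inside the wt range of 75.0 to 105 and with a difference of 0.09 ± 0.11 (SE, adjusted p = 0.861), or 0.018 with wt replicate 5 counted as *Dup/+*. By stage, the medians over libraries of the myelin and mature genes spanned 0.06 to 0.21 and those of the precursor genes -0.04 to 0.03, each narrower than wt. Among non-members, none of the 34 further oligodendrocyte genes passed in edgeR or DESeq2. An unadjusted p under 0.05 was reached by 4 of them, where 4.46% of all genes were higher at that p. Of 5 red cell gene rows, 3 passed in edgeR (2 rows of *Hba-a2* and *Hbb*) and 4 in DESeq2 (these and *Alas2*), all higher.

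The *Del/Dup* animals, with 2 copies as in wt, were compared with wt to ask whether the rearranged chromosomes altered the lineage when the copy number was balanced. *Cd9* was higher than wt, and no other member passed. It was 1 of 35 members where 0.0907% of all genes were called. *Cd9* stood at 57.6, 48.8, 51.8 and 54.1 CPM in replicates 2 to 5, as the labels number them, every library above the wt maximum of 46.7 (1.33% of all genes showed this). The log2 fold change was 0.28 ± 0.05 (SE), a fold of 1.21, with an adjusted p of 0.0480. This call was close to the threshold and was lost under 8 of 9 other settings and on leaving out any of 16 of the 19 libraries, with log2 values of 0.23 to 0.47 and of 0.24 to 0.32.

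At an unadjusted p under 0.05 stood 9 members that were higher in *Del/Dup*, against 8.15% of all genes, and 1 that was lower, against 8.06%. Of the 35, 30 had a log2 fold change above 0 (50.3% of all genes did), with a median of 0.15. The largest difference was that of *Hapln2*, a link protein gene of the matrix at nodes of Ranvier. It stood at 24.1, 18.1, 28.0 and 23.8 CPM against 12.0 to 22.2 in wt (median 14.9), a log2 difference of 0.60 ± 0.18 (SE, adjusted p = 0.156). Replicate 3 lay inside the wt range and the other 3 above it. *Hapln2* was also one of the noisiest members, with a coefficient of variation of 0.190, and in *Del/+* it differed from wt by only 0.06 ± 0.18 (SE).

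*Aspa* stood at 14.8, 12.4, 16.3 and 16.0 CPM in *Del/Dup* against 10.2 to 13.9 in wt, a difference of 0.30 ± 0.10 (SE, adjusted p = 0.195). *Olig2* stood at 24.7, 23.1, 21.3 and 20.6 CPM against 18.6 to 22.4, a difference of 0.19 ± 0.07 (SE, adjusted p = 0.224). In *Aspa* 3 libraries and in *Olig2* 2 lay above the wt range. *Cspg4* stood at 44.5, 54.3, 49.9 and 54.1 CPM, a difference of -0.22 ± 0.08 (SE, adjusted p = 0.207), with 1 library below the wt range. *Opalin*, at 105, 91.1, 98.2 and 103 CPM, lay inside the wt range with a difference of 0.15 ± 0.12 (SE, adjusted p = 0.547). The medians of the myelin and mature genes spanned 0.04 to 0.29 over the 4 libraries, and those of the precursor genes -0.26 to -0.07. The 3 comparisons against wt share the 6 wt libraries, so their differences are not independent of each other. All *Del/Dup* libraries had a high and all wt libraries a low share of multi-mapped reads, so genotype and this property of the libraries cannot be told apart within these 2 groups. A fit with a term for the share takes the effect of the share only from *Del/+* replicate 4 against *Del/+* replicates 1 to 3, so the high values of that 1 library enter every *Del/Dup* difference. In it the median over members was 0.57, *Cd9* differed by 0.47 (adjusted p = 0.102), *Opalin* by 0.71, *Hapln2* by 0.99, *Aspa* by 0.62 and *Olig2* by 0.12, and nothing is read from these values about *Del/Dup*. All 9 tested choroid plexus markers were also higher in *Del/Dup* at an unadjusted p under 0.05, with none called in edgeR and 6 in DESeq2, and with *Ttr* as a covariate *Cd9* differed by 0.23 (adjusted p = 0.547). The median was 0.09 over the 34 further oligodendrocyte genes (28 above 0), -0.10 over 10 neuron markers and -0.11 over 10 astrocyte markers (1 above 0 in each), -0.04 over 10 microglia markers and -0.09 over 9 vascular and fibroblast markers (2 above 0 in each). None of these passed in edgeR. An unadjusted p under 0.05 was reached by 9, 3, 2, 1 and 1 of them, where 8.15% of all genes were higher at that p and 8.06% lower. DESeq2 called *Cdk18* higher and *Slc17a7* lower.

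**Figure D4:**
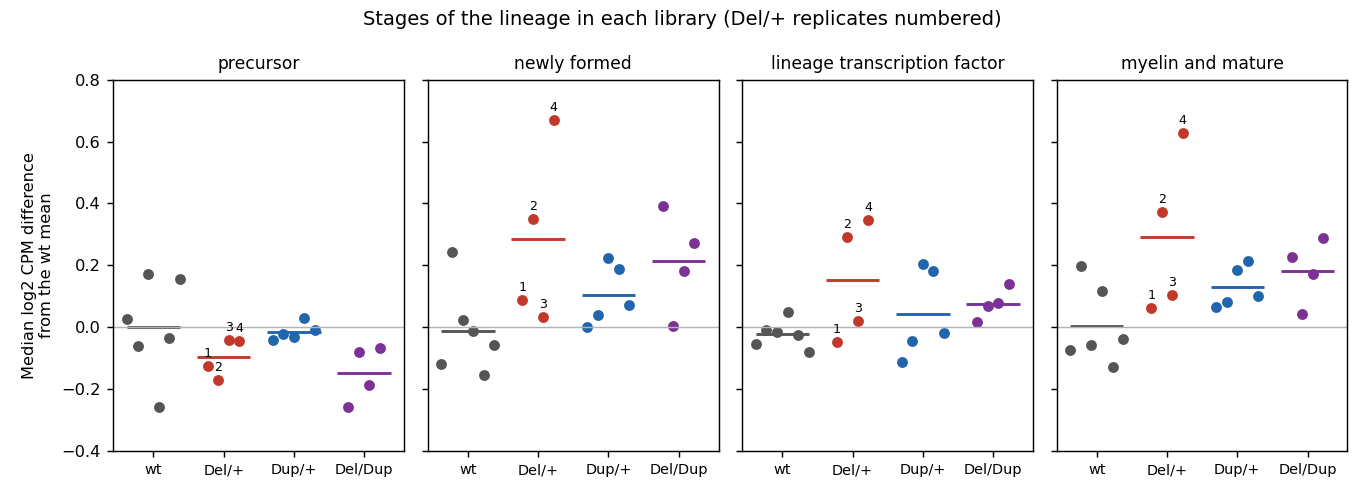
Difference of log2 CPM to the wt mean, as the median (vertical axis) over the members of each stage (panels; 2 precursor, 4 newly formed, 5 transcription factor and 24 myelin and mature genes), by genotype; points are libraries, bars group means, and the *Del/+* points carry their replicate number. *Del/+* replicates 2 and 4 stand at 0.37 and 0.63 for myelin and mature genes, above every wt library (-0.13 to 0.20), and for precursor genes all 4 *Del/+* libraries stand at -0.17 to -0.04, inside the wt range of -0.26 to 0.17.

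*Del/+* and *Dup/+*, with 1 and 3 copies, were then compared directly. *Cd9* was higher in *Del/+*, with all 4 libraries (54.5 to 63.5 CPM) above all 5 of *Dup/+* (45.1 to 49.6 CPM), as in 2.33% of all genes. It was the 1 member called, where 0.784% of all genes were. The log2 difference was 0.28 ± 0.05 (SE, adjusted p = 0.0133), and it was not called without *Dup/+* replicate 3 (0.27, adjusted p = 0.0509) or *Del/+* replicate 4 (0.23, adjusted p = 0.0622). *Opalin* differed by 0.47 ± 0.12 (SE, adjusted p = 0.0809), with *Del/+* replicate 1 at 99.3 CPM inside the *Dup/+* range of 92.3 to 101.

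At an unadjusted p under 0.05 stood 8 members that were higher in *Del/+*, against 6.54% of all genes, and 1 that was lower, *Anln* (-0.21), against 6.93%. Of the 35, 31 had a log2 difference above 0 (50.3% of all genes did). Every *Del/+* library lay below every *Dup/+* library for *Cspg4* (48.0 to 52.2 against 52.5 to 62.4 CPM, log2 -0.16 ± 0.08 SE, adjusted p = 0.393). For this, 2.97% of all genes gave the same pattern. The median over members was 0.13. Without *Del/+* replicate 4 it was 0.03. With the term for the multi-mapped share, where the *Del/+* side again rests on replicate 4 alone, it was 0.44 and 4 members passed (*Cd9*, *Lpar1*, *Opalin* and *Tmem125*), against 0.33% of all genes. Of the further oligodendrocyte genes, *Plekhb1* passed in edgeR, at 253 to 291 CPM in *Del/+* and 219 to 225 in *Dup/+* (log2 0.30 ± 0.05 SE, adjusted p = 0.00373). DESeq2 called *Plekhb1* and *Cdk18* of that list and *Rlbp1* of the further precursor genes, all higher in *Del/+*, where edgeR gave *Cdk18* an adjusted p of 0.0809 and *Rlbp1* one of 0.0712. Of the vascular and fibroblast markers *Dcn* passed in edgeR, at 21.3 to 26.4 CPM in *Del/+* and 9.93 to 20.7 in *Dup/+* (adjusted p = 0.0291), and DESeq2 called it too. Of the 5 red cell gene rows 3 were lower in *Del/+* in edgeR and 4 in DESeq2.

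Finally, *Del/Dup* was compared with *Del/+*, which asks how the deletion differs with and without a duplicated second chromosome. No member passed in edgeR or in DESeq2 (0.175% of all genes did in edgeR), and 2 had an unadjusted p under 0.05. They were *Opalin*, lower in *Del/Dup* as were 3.56% of all genes (log2 -0.41 ± 0.13 SE, adjusted p = 0.315), and *Hapln2*, higher as were 4.92% of all genes (0.54 ± 0.19 SE, adjusted p = 0.420). *Cd9* differed by -0.12 ± 0.06 (SE, 95% interval -0.24 to 0.00, adjusted p = 0.606). The median over the 35 members was -0.12, with 5 above 0 (49.6% of all genes were). Among libraries of a high share of multi-mapped reads only, which leaves out *Del/+* replicate 4, *Opalin* differed by -0.25 and *Cd9* by -0.06.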

How the data were processed

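From the hippocampi of 19 male Sprague Dawley rats the authors made stranded total RNA libraries, sequenced as short single-end reads. The protocol of the labels names rRNA removal and their molecule field polyA RNA. The authors aligned the reads with Hisat2 to Rno6 and used HTSeq with Ensembl genes for counting. Raw counts per gene were deposited, 32623 genes and 5 summary lines per file. The summary lines were left out. The multi-mapped line served only to sort libraries by a share of 55%.

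Groups were taken from the labels. Counts were tested with edgeR 4.0.16 in R 4.3.3 (filterByExpr, TMM scaling, glmQLFit and glmQLFTest, 1 fit of all 19 libraries with a mean per group, prior count 2), with Benjamini-Hochberg adjustment over 15440 genes and a threshold of 0.05. The F statistic gave the SE. The procedure was also run on simulated data, with an outcome that is not given here. CPM used TMM-scaled library sizes. Alternatives were DESeq2 1.42.0, other scaling, no filter, a replicate block, a term for the multi-mapped share, within-share fits, the other reading of wt replicate 5, only the groups compared, *Ttr* as a covariate, and each library left out. How far the spread between animals and counting error each limited precision was not compared.

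The members, the other gene lists and the tests were chosen with earlier results of these data known. Named with full values are members called in any comparison and, against wt, the 5 with the smallest adjusted p; *Mbp* and others were added after their values were seen. Of other lists, called genes and up to 3 with the smallest adjusted p are named. Promoters of *Mog*, *Ermn*, *Myrf*, *Sox10*, *Olig1*, *Bcas1*, *Car2* and *Lpar1* were not used here.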

Additional observations from a re-analysis of the deposited data

Results flagged for a closer look

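Single libraries stood apart within their group in 5 of the 140 combinations of a member and a group, by Dixon's ratio of the gap to the range. Chance gives about 1 such case in 20 groups of like size. *Ninj2*, a gene of a cell adhesion protein, stood at 8.52 CPM in *Del/+* replicate 4, with the other *Del/+* libraries at 5.62 to 5.74 CPM. *Gpr17* stood at 19.4 CPM in *Del/Dup* replicate 2, below the others at 24.2 to 25.0 CPM. In wt, *Nkx6-2* stood at 11.5 CPM in replicate 4 (the others at 7.04 to 7.88 CPM). *Enpp6* stood at 6.91 CPM in wt replicate 2 (the others at 4.18 to 4.85 CPM), and *Gpr37* stood at 166 CPM in the same library (the others at 139 to 146 CPM). None of the 20 groups of stage medians held such a library.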

How the results depend on the processing

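*Cd9* in *Del/+* against wt passed under all 9 other settings and without each of the 19 libraries (log2 0.35 to 0.54, adjusted p from 8.9e-05 to 0.00097 with a library left out). The count of members called in that comparison was 2 and moved to 15 with DESeq2 (which called 655 of all genes, against 119), to 13 with the multi-mapped share term (80 of all genes), and to 1 with wt replicate 5 counted as *Dup/+*, with only the groups compared, or with *Ttr* as a covariate (chosen after seeing the data). It ranged from 1 to 12 with a library left out: 12 without *Del/+* replicate 1 (1.68% of all genes), 5 without *Del/+* replicate 3, 4 without *Del/Dup* replicate 2 or 3, and 1 without wt replicate 1, 3 or 5 or *Del/+* replicate 2 or 4. Some of these counts, here and below, stand without the number or share of all genes called in the same fit. Those are not read as results about the members. For *Del/Dup* against wt the count of 1 became 0 under RLE size factors, library size alone, no filter, the replicate block, the share term, the other reading of wt replicate 5, only the groups compared, and *Ttr*, and 0 to 1 with a library left out (1 only without wt replicate 5, *Del/Dup* replicate 3 or *Del/+* replicate 4). For *Del/+* against *Dup/+* the count of 1 became 2 with DESeq2 or the other reading of wt replicate 5, 4 with the share term, and 0 to 2 with a library left out (2 without *Del/+* replicate 1). *Opalin* in *Del/+* against wt also missed the threshold with wt replicate 5 as *Dup/+* (log2 0.53, adjusted p = 0.0527), only the groups compared (log2 0.57, adjusted p = 0.0682) and *Ttr* (log2 0.54, adjusted p = 0.0721). The median log2 CPM difference from wt over precursor genes in *Dup/+* ranged from -0.067 (without wt replicate 4) to 0.019 (without wt replicate 3). Libraries of the same replicate number showed little shared deviation (same-number pairs had a median correlation of 0.01, 2 of 24 over 0.1, and 0 of 18 libraries were closest to their own number). Such correlations cannot show whether animals shared a litter or handling. With the replicate block the count was 2 in *Del/+* against wt and 0 in *Del/Dup* against wt. The causes were not tested.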

Other observations

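Members varied more between animals of a group than genes in general did, with a median biological coefficient of variation of 0.111 against 0.0852 over 15440 genes. It was 0.115 for the 24 genes of myelin and mature cells, 0.127 for the 4 of newly formed cells, 0.0880 for the 5 transcription factors and 0.0772 for the 2 precursor genes. Among the 6 wt animals, replicate 2 had the highest level in 21 of 35 members and was among the 2 highest in 27, and its median over the myelin and mature genes was 0.20, while replicate 5 stood at -0.13. The difference between the medians of the myelin and mature genes and of the precursor genes spanned 0.15 to 0.67 in *Del/+*, 0.12 to 0.49 in *Del/Dup* and 0.10 to 0.22 in *Dup/+*, against -0.23 to 0.38 in wt, and every group overlapped with wt.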
